A study of Sus scrofa with 22 samples.

Results

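Mature oligodendrocytes, the cells that wrap axons of the central nervous system in myelin, express a well known set of genes for myelin membrane proteins, myelin lipid enzymes and the factors that keep the cell mature. The genes described here are 36 such genes, named by their symbols, among the 31907 gene identifiers counted in each cerebellum. Pig Ensembl identifiers were matched to symbols through a gene name table, and 31 of the 36 genes matched a row. MOBP, MAL, NINJ2, MYRF and LPAR1 matched none through that table and were not analysed here. All 31 matched genes exceeded 10 counts in at least 1 library and all 31 passed the filter on low counts. The set is defined by known roles, and no measured value enters its rule.

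The study counted RNA in the cerebella of 22 newborn piglets (Sus scrofa). The BDL group, 11 animals (7 female, 4 male), had a bile duct ligation, an operation that stops bile from leaving the liver. The SHAM group, 11 animals (5 female, 6 male), had sham surgery. Operations took place on day 8 of life and the animals were followed for 3 weeks. The labels name no strain, litter or batch, and every animal belonged to 1 of these groups only. Each library held 14811464 to 20046909 counts in genes, and 29.9% to 34.6% of its counted reads were assigned to no gene. Levels are given as CPM, the counts of a gene scaled to a common library size with TMM factors. They are not divided by gene length, so levels of different genes are not ranked.

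Myelin is a stack of tightly apposed membrane made by the oligodendrocyte, with a high share of cholesterol and of the galactolipids galactosylceramide and sulfatide. Myelin basic protein zips the inner faces of the membrane together, other proteins hold the innermost layer to the axon, and paired contacts flank the nodes of Ranvier. In the cerebellum most myelin lies in the white matter, along the axons of Purkinje cells and of the fibres that enter the cerebellar cortex. Much of it forms in the weeks around and after birth. A bulk library cannot tell fewer oligodendrocytes from less RNA per oligodendrocyte, and white matter taken with the piece adds to both.

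The label of the gene set was checked against the libraries. The 31 genes together took 0.524% to 2.26% of gene counts in BDL animals (median 1.38%) and 0.660% to 2.08% in SHAM animals (median 1.25%). MBP alone took 0.264% to 1.58% in BDL animals and 0.336% to 1.41% in SHAM animals. Schwann cells, which make the myelin of peripheral nerves, share several of these genes. Their defining markers DHH and EGR2 stayed at 0 to 8 and 0 to 11 counts per library, and PMP2 at 0 to 38. The summed level of the 7 matched Schwann cell markers was 47.7 to 77.9 CPM in BDL animals and 53.8 to 72.8 CPM in SHAM animals. Most of that sum was DRP2 (655 to 1290 counts), while CDH19 had 22 to 73 counts and PRX 41 to 93 counts. The tissue label was checked with neuron genes of the cerebellum. GABRA6, a receptor subunit of granule neurons, stood at 319 to 397 CPM in BDL animals and 325 to 423 CPM in SHAM animals. CALB1, the calcium buffer of Purkinje cells, stood at 301 to 495 CPM in BDL animals and 286 to 476 CPM in SHAM animals.

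BDL animals and SHAM animals differed in none of these genes by more than the spread between animals. With sex in the model, 0 of the 31 genes passed an adjusted p of 0.05 in edgeR's quasi-likelihood test with Benjamini-Hochberg adjustment over 14994 genes, and 0% of all genes did. DESeq2 and limma-voom also called 0 of 31. At an unadjusted p under 0.05 the count was 0 of 31 by all 3 tools, beside 4.96% of all genes in edgeR's test. For 29 of the 31 genes the fold change lay on the higher side in BDL animals, beside 50.3% of all genes. The median log2 fold change of the 31 genes was 0.16, and that of all genes was 0.00. Most of these genes went up and down together from animal to animal, as described further on, so the 29 are not 29 separate comparisons. Without BDL replicate 2 and SHAM replicate 1, the lowest animals of their groups for MBP, 28 of 31 were on the higher side (median 0.19), beside 49.3% of all genes, and 0 had an unadjusted p under 0.05, beside 3.85% of all genes. For 0 of the 31 genes were the 2 groups free of overlap, as for 0% of all genes.

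The 95% confidence intervals show how far this design could see. The interval of the fold change lay inside a 2-fold change either way for 31 of 31 genes and inside a 1.5-fold change for 15 of 31. Leaving out single animals moved the median log2 fold change between 0.08 (without BDL replicate 5) and 0.25 (without SHAM replicate 11). Without BDL replicate 11 it was 0.09, without BDL replicate 1 it was 0.11 and without SHAM replicate 1 it was 0.11. Between 25 and 29 of the genes stayed on the higher side. The animal most often lowest and the animal most often highest in these genes were both BDL animals.

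**Figure D1:**
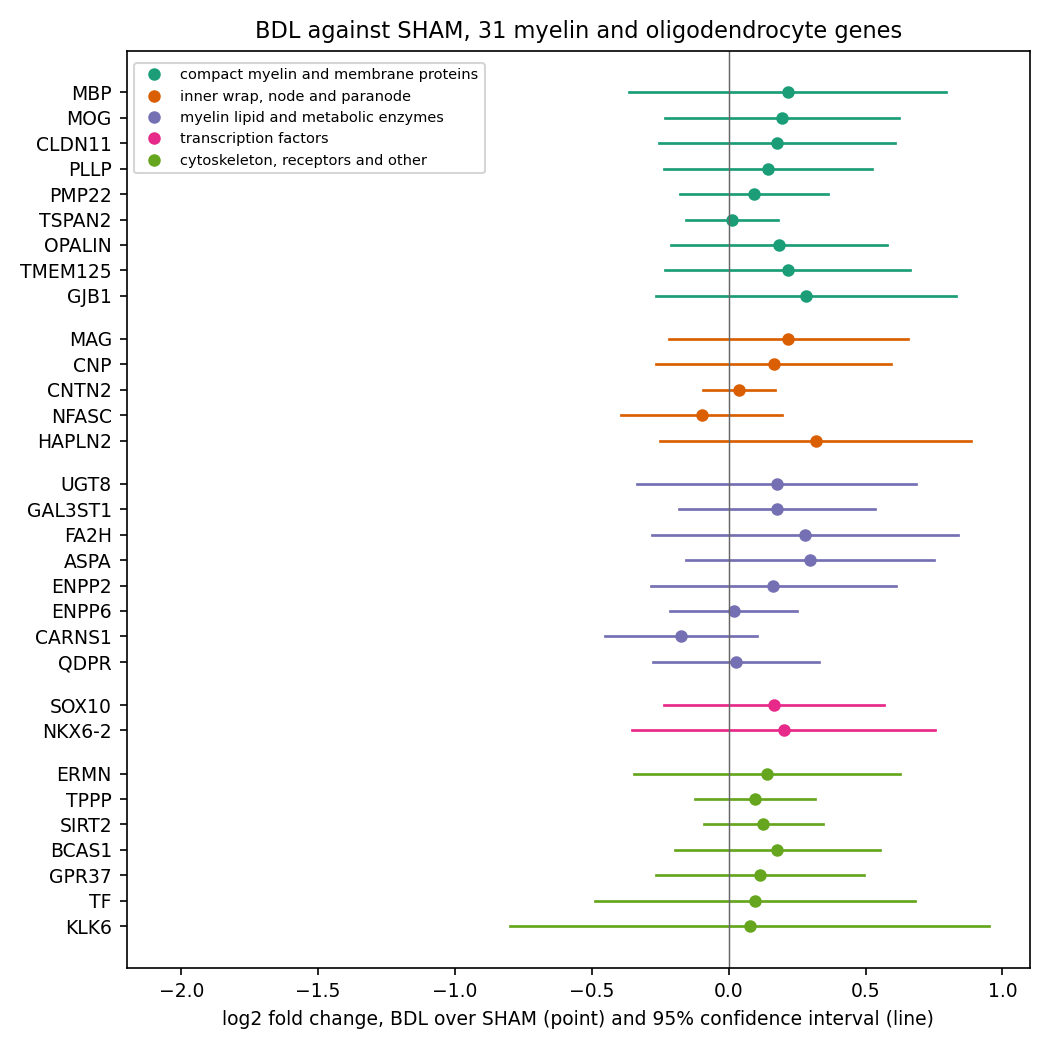
Log2 fold change of BDL over SHAM (horizontal axis) for the 31 genes, ordered by role from top to bottom. Points are estimates and lines are 95% confidence intervals from 11 BDL and 11 SHAM animals. All 31 intervals cross 0, and 29 of the points lie to its right.

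Genes of compact myelin and of the oligodendrocyte membrane overlapped between BDL and SHAM animals. MBP (chromosome 1, 147649516 to 147685289, Sscrofa11.1) encodes the basic protein that compacts the membrane from its inner side. Its level had a lowest, median and highest CPM of 2600.0, 8667 and 16035 in BDL animals and of 3318, 7826 and 14261 in SHAM animals. The lowest BDL animal was replicate 2 and the highest replicate 5, while the lowest SHAM animal was replicate 1 and the highest replicate 9, so the groups overlapped over nearly their whole range. BDL replicate 2 and SHAM replicate 1 also had the 2 smallest libraries (15377014 and 14811464 gene counts). They had the 2 highest shares of counted reads assigned to no gene (34.6% and 33.5%). The means were 9848 ± 4085 CPM in BDL animals and 8498 ± 3498 CPM in SHAM animals (SD, n = 11 each). The log2 fold change was 0.22 ± 0.28 (SE), with a 95% interval of -0.36 to 0.79 and an adjusted p of 0.928 in edgeR's test.

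MOG, a glycoprotein of the outermost myelin layer, ran from 26.5 to 108 CPM in BDL animals (median 72.4), against 40.6 to 89.6 CPM in SHAM animals (median 69.8). CLDN11, the claudin that forms the tight junctions between myelin layers, ran from 197 to 726 CPM in BDL animals (median 428), against 247 to 606 CPM in SHAM animals (median 419). OPALIN, a sialylated membrane protein of oligodendrocytes, had a median of 187 CPM in BDL animals (range 81.6 to 273) and 137 CPM in SHAM animals (range 93.4 to 226). In all 3 the lowest BDL animal was replicate 2. The highest SHAM animal was replicate 11, and the SHAM range lay inside the BDL range. PLLP, a small membrane protein of myelin rafts, ran from 79.5 to 230.3 CPM in BDL animals (median 161), against 75.8 to 220.1 CPM in SHAM animals (median 135). TMEM125, a membrane protein known from oligodendrocytes of mice, had a median of 39.1 CPM in BDL animals (range 16.3 to 61.2) and 31.8 CPM in SHAM animals (range 16.3 to 54.2). GJB1, which forms gap junctions between myelin layers and with other glia (connexin 32), ran from 8.06 to 46.0 CPM in BDL animals (median 23.3), against 9.53 to 37.3 CPM in SHAM animals (median 17.98). For all 3, BDL replicate 2 and SHAM replicate 1 were the lowest animals of their groups.

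PMP22, best known as a protein of peripheral myelin, ran from 39.4 to 97.7 CPM in BDL animals (median 64.6), against 39.2 to 83.8 CPM in SHAM animals (median 61.7). Its log2 fold change was 0.09 ± 0.13 (SE) and -0.00025 without BDL replicate 5. PMP22 is also made by fibroblasts. Over the 22 animals PMP22 and DCN, a fibroblast proteoglycan, had r = 0.06 and rho = 0.08 (permutation p adjusted over 6 relations 0.921 and 0.836). Without the 2 animals farthest from the DCN median, r was -0.22. The part of fibroblasts in the PMP22 levels was not tested. TSPAN2, a tetraspanin of early myelinating oligodendrocytes, had a median of 11.8 CPM in BDL animals (range 9.47 to 14.04) and 12.04 CPM in SHAM animals (range 10.3 to 14.7). Its highest SHAM animals were replicates 4, 3 and 1, which were among the 4 lowest SHAM animals for MBP. Over the 9 genes of this role the log2 fold change ran from 0.01 (TSPAN2) to 0.28 (GJB1), with a median of 0.18, and 9 of 9 were on the higher side in BDL animals.

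Genes of the inner wrap, the node and the paranode serve the contacts between myelin and axon. MAG (chromosome 6, 44794197 to 44809933, Sscrofa11.1) encodes the adhesion molecule of the innermost myelin layer. It ran from 200.1 to 636 CPM in BDL animals (median 412), against 188 to 601 CPM in SHAM animals (median 355). BDL replicates 2 and 11 and SHAM replicates 1 and 11 were the extremes of their groups, and the 2 groups covered almost the same range. Its log2 fold change was 0.22 ± 0.21 (SE, 95% interval -0.22 to 0.65, adjusted p = 0.894, edgeR). CNP, an enzyme of the cytoplasmic channels of myelin, ran from 154 to 601 CPM in BDL animals (median 363), against 207 to 591 CPM in SHAM animals (median 337). HAPLN2, a link protein of the matrix around nodes, had a median of 53.3 CPM in BDL animals (range 19.4 to 90.9) and 35.2 CPM in SHAM animals (range 15.6 to 92.1). HAPLN2 had the largest log2 fold change of the 31 genes on the higher side, 0.32 ± 0.27 (SE, adjusted p = 0.881, edgeR), with groups that overlapped over almost their whole range.

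CNTN2, a contactin of the juxtaparanode that neurons also make, had a lowest, median and highest CPM of 467, 577 and 639 in BDL animals and of 453, 549.6 and 641 in SHAM animals. Its values stayed within a narrow band, and BDL replicate 2 and SHAM replicate 1, the lowest animals for MBP, were not low for it. NFASC, which encodes glial and neuronal forms of neurofascin at paranodes and nodes, ran from 147 to 411 CPM in BDL animals (median 243), against 189.7 to 344 CPM in SHAM animals (median 285). Its log2 fold change was -0.10 ± 0.14 (SE), 1 of only 2 on the lower side. The 5 genes of this role had a median log2 fold change of 0.16, with 4 of 5 on the higher side. CNTN2 and NFASC lie close together on chromosome 9.

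Enzymes of myelin lipid and of oligodendrocyte metabolism included the pair that makes the galactolipids of myelin. UGT8, which makes galactosylceramide, ran from 98.6 to 606 CPM in BDL animals (median 332), against 177 to 460.3 CPM in SHAM animals (median 316). GAL3ST1, which adds the sulfate that turns it into sulfatide, had a median of 19.5 CPM in BDL animals (range 12.1 to 28.3) and 15.4 CPM in SHAM animals (range 9.53 to 27.2). FA2H, which hydroxylates the fatty acids of these lipids, had a lowest, median and highest CPM of 21.3, 65.8 and 128 in BDL animals and of 31.4, 57.0 and 111 in SHAM animals. For FA2H the lowest animals were BDL replicate 2 and SHAM replicates 4 and 1, and the highest were BDL replicates 5 and 11 and SHAM replicate 11. All 3 genes had the same highest animal in each group, BDL replicate 5 and SHAM replicate 11. FA2H had a log2 fold change of 0.28 ± 0.27 (SE, adjusted p = 0.894, edgeR).

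ASPA, which splits N-acetylaspartate into aspartate and acetate for lipid synthesis, had a lowest, median and highest CPM of 2.88, 6.67 and 10.1 in BDL animals and of 2.33, 5.51 and 7.65 in SHAM animals. Its 2 highest animals were BDL replicates 6 and 5 and its lowest was SHAM replicate 1, with BDL replicate 2 next to it, so BDL animals stood at the top and animals of both groups at the bottom. It had the smallest p of the 31 genes, with a log2 fold change of 0.30 ± 0.22 (SE, p = 0.187, adjusted p = 0.881, edgeR). ASPA rested on 35 to 187 counts per library. CARNS1, which makes carnosine, had a lowest, median and highest CPM of 2.79, 3.82 and 5.87 in BDL animals and of 3.46, 4.47 and 6.05 in SHAM animals. BDL replicates 3, 5, 6 and 2 had the lowest CARNS1 values of all 22 animals, and the highest were SHAM replicate 7 and BDL replicate 8. It came next by p, on the lower side, with a log2 fold change of -0.17 ± 0.14 (SE, p = 0.21, adjusted p = 0.881, edgeR) on 51 to 106 counts per library.

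ENPP2, the secreted enzyme autotaxin, ran from 64.3 to 268 CPM in BDL animals (median 181), against 89.9 to 209 CPM in SHAM animals (median 158). Choroid plexus, the tissue that secretes cerebrospinal fluid, also makes ENPP2, and the summed choroid plexus markers ran from 93.5 to 1583 CPM in BDL animals and from 96.9 to 998 CPM in SHAM animals. Across the 22 animals ENPP2 and TTR, the main secreted protein of choroid plexus, had r = 0.43 and rho = 0.46 (permutation p adjusted over 6 relations 0.0876 and 0.0945). Without the 2 animals farthest from the TTR median, r was 0.23 (p = 0.336, permutation test over 20 animals). The part of choroid plexus in the ENPP2 levels was not tested. ENPP6, a choline phosphodiesterase of newly formed oligodendrocytes, had a median of 23.4 CPM in BDL animals (range 14.7 to 26.6) and 21.9 CPM in SHAM animals (range 13.7 to 26.4). QDPR, which regenerates tetrahydrobiopterin, ran from 80.3 to 170.0 CPM in BDL animals (median 137), against 64.2 to 179.8 CPM in SHAM animals (median 132). In this role 7 of 8 genes were on the higher side, with a median log2 fold change of 0.17, and ENPP6 (0.02 ± 0.11, SE) and QDPR (0.03 ± 0.15, SE) lay closest to 0.

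Of the transcription factors, SOX10, which the oligodendrocyte lineage needs throughout, ran from 43.2 to 143 CPM in BDL animals (median 77.9), against 48.0 to 131 CPM in SHAM animals (median 74.1). NKX6-2, a homeobox factor of myelinating oligodendrocytes, had a median of 2.82 CPM in BDL animals (range 1.51 to 6.13) and 2.69 CPM in SHAM animals (range 1.11 to 4.61) and rested on 17 to 114 counts per library. Both lay on the higher side in BDL animals, with log2 fold changes of 0.17 ± 0.19 and 0.20 ± 0.27 (SE). NKX6-2 overlaps INPP5A in the RefSeq annotation of the same build. PLLP overlaps ARL2BP, and ENPP6 and BCAS1 each overlap an uncharacterized locus. No source used here gives the strand setting of the counting, so these 4 genes could hold reads of their overlapping neighbours.

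The last role held cytoskeletal proteins, receptors and secreted proteins. ERMN, an actin-binding protein of mature oligodendrocytes, ran from 36.4 to 194 CPM in BDL animals (median 124), against 76.0 to 181 CPM in SHAM animals (median 119). TPPP, which polymerises tubulin along myelin sheaths, had a median of 163 CPM in BDL animals (range 112 to 215) and 153 CPM in SHAM animals (range 119 to 209). SIRT2, a deacetylase of tubulin and other proteins abundant in myelin, had a lowest, median and highest CPM of 172, 237 and 299 in BDL animals and of 156, 215 and 297 in SHAM animals. SIRT2 had the third smallest p, with a log2 fold change of 0.13 ± 0.10 (SE, p = 0.24, adjusted p = 0.881, edgeR). Its extremes were SHAM replicate 1 and BDL replicate 2 at the bottom and BDL replicate 11 and SHAM replicate 11 at the top, with full overlap of the groups. BCAS1, a marker of oligodendrocytes that are starting to myelinate, ran from 180.2 to 506 CPM in BDL animals (median 406), against 197 to 541 CPM in SHAM animals (median 297). GPR37, a receptor that restrains the maturation of oligodendrocytes in mice, had a median of 76.7 CPM in BDL animals (range 31.4 to 119) and 76.3 CPM in SHAM animals (range 52.2 to 111). The group medians stood further apart for BCAS1 than for GPR37, and the ranges overlapped in both.

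TF, which encodes transferrin, the iron carrier, ran from 118 to 596 CPM in BDL animals (median 335), against 215 to 683 CPM in SHAM animals (median 349.8). Its highest animal was SHAM replicate 11 and its lowest BDL replicate 2. TF is also known from choroid plexus. Over the 22 animals TF and TTR had r = -0.03 and rho = -0.07 (permutation p adjusted over 6 relations 0.921 and 0.836). The part of choroid plexus in the TF levels was not tested. KLK6, a secreted serine protease of oligodendrocytes, had a median of 9.34 CPM in BDL animals (range 2.18 to 25.98) and 7.66 CPM in SHAM animals (range 2.07 to 32.4). SHAM replicate 9 had the highest KLK6 level of all 22 animals. The 7 genes of this role were all on the higher side, with a median log2 fold change of 0.11, and the KLK6 value of 0.08 ± 0.42 (SE) had the widest interval of the 31 genes, -0.80 to 0.95.

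With the MBP level of each animal added to the model, the median log2 fold change of the other 30 genes was 0.02, and 21 of 30 were on the higher side, beside 49.5% of all genes. The number past the threshold was 0 of 30, and 0 of 30 had an unadjusted p under 0.05, beside 5.71% of all genes. The smallest p then belonged to HAPLN2, at 0.19 (p = 0.0671, adjusted p = 0.814, edgeR). NFASC and CARNS1 stood lowest, both at -0.18 with unadjusted p of 0.147 and 0.202.

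The surgery effect was estimated within each sex in a model of the 4 groups. Among females, 6 of 31 genes were on the higher side in BDL animals, with a median log2 fold change of -0.12, beside 50.5% of all genes on the higher side. Among males, 29 of 31 were on the higher side, with a median of 0.49, beside 47.5% of all genes. Most of the genes moved together from animal to animal, so no count of them in this model is a count of separate comparisons. MBP ran from 2600.0 to 13952 CPM (median 8071) in 7 BDL females, against 7115 to 14106 CPM (median 8204) in 5 SHAM females. In males it ran from 8313 to 16035 CPM (median 11112) in 4 BDL animals, against 3318 to 14261 CPM (median 6404) in 6 SHAM animals. The groups overlapped over much of their range in both sexes. In females, BDL replicates 2, 10 and 9 (2600.0, 6117 and 6472 CPM) lay under the lowest SHAM female. In males, 4 of the 6 SHAM animals lay under the lowest BDL male.

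No gene of the set passed the adjusted test in either sex (0 of 31, beside 0% of all genes in each). Among females 0 of 31 had an unadjusted p under 0.05, beside 5.83% of all genes. At an unadjusted p under 0.05, 7 of 31 genes were on the higher side in BDL males, beside 4.08% of all genes in either direction. These 7 were MAG, CNP, SIRT2, SOX10, MOG, CLDN11 and TPPP, which moved together between animals and are not 7 separate comparisons. MAG ran from 303 to 636 CPM (median 518) in BDL males, against 188 to 455 CPM (median 280.4) in SHAM males, a log2 fold change of 0.67 ± 0.29 (SE, p = 0.0323, adjusted p = 1, edgeR). In females MAG ran from 200.1 to 601 CPM (median 360.3) in BDL animals, against 326 to 601 CPM (median 376) in SHAM animals, a log2 fold change of -0.15 ± 0.26 (SE). CNP ran from 298 to 601 CPM (median 507) in BDL males, against 207 to 449 CPM (median 294) in SHAM males, and from 154 to 516 CPM (median 317) in BDL females, against 313 to 591 CPM (median 375) in SHAM females.

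The difference itself, the BDL effect in females minus that in males, was negative for 30 of 31 genes, with a median of -0.57 on the log2 scale, while 51.5% of all genes lay above 0. None passed the adjusted test (0 of 31, beside 0% of all genes), and 2 of 31 had an unadjusted p under 0.05, beside 4.6% of all genes. They were CNP, at -0.84 ± 0.38 (SE, p = 0.0401, adjusted p = 0.917, edgeR), and MAG, at -0.82 ± 0.39 (SE, p = 0.0493, adjusted p = 0.917, edgeR). The lowest animals for MBP, BDL replicate 2 and SHAM replicate 1, are a BDL female and a SHAM male, and both pull the difference the same way. Without these 2 animals the median difference was -0.39, with 30 of 31 still negative and 1 at an unadjusted p under 0.05, beside 6.84% of all genes. The median was then -0.02 in females, with 14 of 31 on the higher side, beside 50.5% of all genes. In males it was 0.38, with 29 of 31 on the higher side, beside 49.6% of all genes, and 2 at an unadjusted p under 0.05, beside 5.56% of all genes.

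Several other gene lists, though not all, also had BDL effects of unlike direction in the 2 sexes, with 0 genes past the adjusted test in each. Of all genes, 4.08% had an unadjusted p under 0.05 in males and 4.6% for the difference, or 6.84% without the 2 low animals. Of 29 other myelin and oligodendrocyte genes, 27 were on the higher side in BDL males (median log2 fold change 0.48, 13 at an unadjusted p under 0.05) and 5 in BDL females (median -0.09). Their difference, female minus male, was negative for 26 of 29, with 6 at an unadjusted p under 0.05, and 2 without the 2 low animals. Of 11 microglia and macrophage markers, the genes of the brain's resident immune cells, 1 was on the higher side in BDL females (median -0.24) and 11 in BDL males (median 0.21). Their difference was negative for 11 of 11 (median -0.49, 3 at an unadjusted p under 0.05), and for 9 of 11 without the 2 low animals (median -0.37, 1 at an unadjusted p under 0.05). Their summed level was 136 to 243 CPM in BDL females, against 158 to 302 CPM in SHAM females, and 202 to 295 CPM in BDL males, against 140.3 to 255 CPM in SHAM males. The choroid plexus markers lay the other way. Of 5 tested, 4 were on the higher side in BDL females (median 0.97) and 0 in BDL males (median -1.11), and the difference was positive for 5 of 5 (median 2.08), with 4 at an unadjusted p under 0.05. The summed level of the 6 matched markers was 121 to 1583 CPM in BDL females, against 96.9 to 342 CPM in SHAM females, and 93.5 to 181 CPM in BDL males, against 116 to 998 CPM in SHAM males. The difference was also negative for 16 of 17 oligodendrocyte precursor genes, with 3 at an unadjusted p under 0.05. Without the 2 low animals these counts were 14 of 17 and 0. It was negative for 15 of 18 cholesterol synthesis genes, and for 13 of 18 without those animals. For axonal node and paranode partners it was negative in 10 of 11, and in 11 of 11 without them. These partners were mostly on the lower side in both sexes, 9 of 11 in BDL females and 8 of 11 in BDL males. For 9 of 9 meningeal and fibroblast markers the difference was positive, and for 8 of 9 without the 2 low animals. Of these markers, 7 of 9 were then on the lower side in BDL females and 8 of 9 in BDL males. The part of microglia, choroid plexus or other cells in the sex difference of the myelin genes was not tested.

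**Figure D2:**
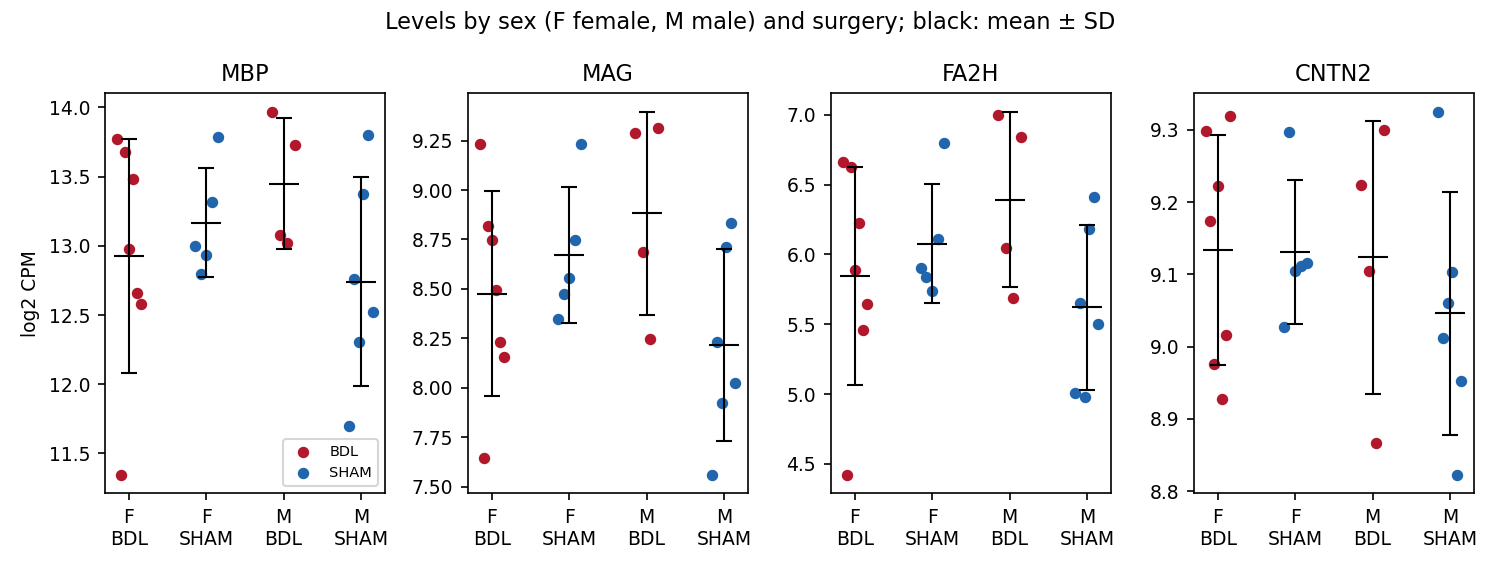
Log2 CPM (vertical axis) of MBP, MAG, FA2H and CNTN2 in each animal, by sex and surgery (7 BDL and 5 SHAM females, 4 BDL and 6 SHAM males). Black lines are the mean and bars the SD of each group, and the vertical scale differs between panels. In males the BDL mean lies above the SHAM mean for MBP, MAG and FA2H with overlapping points, and in females it does not.

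Females and males differed in none of these genes by more than the spread between animals. Of the 31 genes, 12 were on the higher side in females, beside 49.6% of all genes. None passed the adjusted test (0 of 31, beside 0.06% of all genes), and 0 had an unadjusted p under 0.05, beside 5.95% of all genes. TSPAN2 had the smallest p, with a log2 fold change of female over male of -0.16 ± 0.08 (SE, p = 0.0621, adjusted p = 0.838, edgeR). Body weight is labelled without a unit. Per SD of weight, 19 of 31 genes lay on the higher side, beside 50.3% of all genes. None passed the adjusted test (0 of 31, beside 0% of all genes), and 0 had an unadjusted p under 0.05, beside 7.39% of all genes. MBP had r = 0.02 and rho = 0.05 with weight over the 22 animals (permutation p adjusted over 6 relations 0.921 and 0.836). Without the 2 animals farthest from the median weight, r was 0.11.

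The genes varied widely between animals within each surgery group. On the log2 CPM scale the median SD over the 22 animals was 0.49 for the 31 genes and 0.20 for all genes tested. Of the 31, 13 lay above the 90th percentile of all genes in SD and 7 above the 95th. BDL replicate 2 had the lowest value of all 22 animals in 17 of the 31 genes, and SHAM replicate 1 in 11. BDL replicate 5 had the highest in 13, BDL replicate 11 in 6 and SHAM replicate 11 in 3. On the log2 CPM scale MBP was 11.34 in BDL replicate 2 and 11.70 in SHAM replicate 1, beside a median of 13.01 over all animals. The SD was larger in BDL than in SHAM animals for 23 of 31 genes, a description without a test or a share over all genes. BDL replicate 2 was the lowest BDL animal in 27 of the 31. Most of the genes moved together, so the 23 are not separate comparisons.

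**Figure D3:**
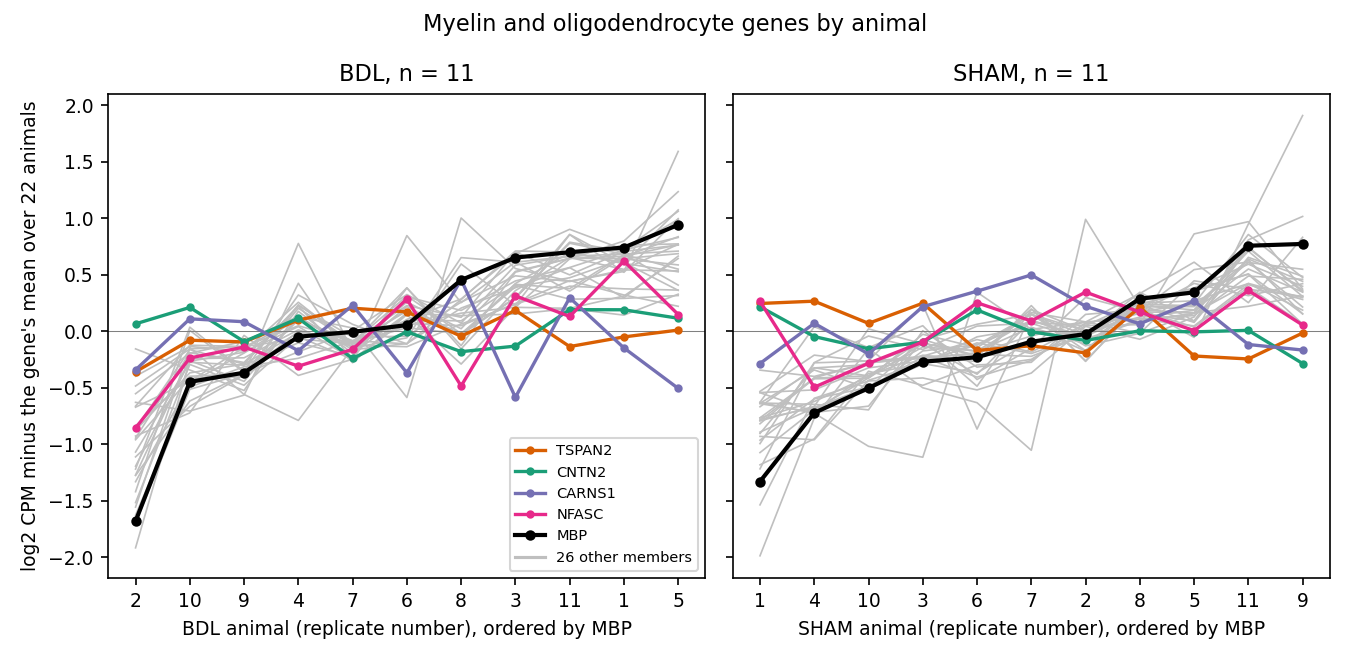
Log2 CPM of each gene minus its mean over the 22 animals (vertical axis), with the 11 BDL animals on the left and the 11 SHAM animals on the right, each ordered from low to high MBP. Grey lines are the 26 genes that follow MBP, all below their mean in BDL replicate 2 and SHAM replicate 1. Many lie below -1 in BDL replicate 2, and fewer do in SHAM replicate 1. At the right of each panel all lie above their mean. Many are above 0.5 in BDL replicate 5, and fewer are in SHAM replicate 9. TSPAN2, CNTN2, CARNS1 and NFASC are drawn in colour and cross the others.

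Most of the genes moved together. The 465 pairs of genes had a median Pearson r of 0.84 over the 22 animals, with a jackknife error of 0.05, and 70.3% of pairs had an r above 0.7. The first principal component held 76.2% of the variance of the 31 genes. The tightest pair was PLLP with OPALIN, at 0.98, followed by SOX10 with TPPP and UGT8 with GPR37, at 0.98 each. The loosest was CNTN2 with KLK6, at -0.34. The median was 0.87 within BDL animals and 0.83 within SHAM animals, 0.84 within females and 0.87 within males. Leaving out single animals kept it between 0.81 and 0.85, and it was 0.77 without BDL replicate 2 and SHAM replicate 1.

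MBP served as the reference for a test of this co-movement, since it is the best known myelin gene. Of the other 30 genes, 26 correlated positively with MBP at an adjusted p under 0.05 (permutation test with 100000 resamples, Benjamini-Hochberg over 14993 genes), beside 4.07% of all genes. The count was also 26 by Spearman's rho, beside 3.52% of all genes, and 26 without the 2 animals farthest from the MBP median, beside 2.53%. The median r of the 30 genes was 0.92, and that of all genes was -0.02. TMEM125 had r = 0.97 and rho = 0.95, FA2H had r = 0.97 and rho = 0.97, and GJB1 had r = 0.97 and rho = 0.95, each with an adjusted p of 0.000701 for r. That is the value that the smallest p permutations can give, 1e-05, takes after adjustment. The lowest r among the 26 was that of ENPP6, 0.70 (rho = 0.77, adjusted p = 0.0518 without SHAM replicate 1).

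By role, 7 of 8 membrane genes other than MBP, 3 of 5 genes of the inner wrap and node, 7 of 8 enzymes, 2 of 2 transcription factors and 7 of 7 other genes correlated with MBP. The enzymes of myelin galactolipid had r of 0.96 (UGT8), 0.97 (FA2H) and 0.93 (GAL3ST1). MAG had r = 0.93, PMP22 0.95, TF 0.90, ENPP2 0.87, SIRT2 0.88 and ASPA 0.82. SOX10, the factor that works throughout the lineage, had r = 0.91, and NKX6-2, with few counts, 0.76. Each of these 11 passed the test.

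The correlation held within each surgery group, whose median r with MBP over the 30 genes was 0.92 in BDL animals and 0.91 in SHAM animals. MAG had r = 0.91 in BDL animals and 0.96 in SHAM animals. MBP was also related to depth and to the share of reads assigned to no gene. Its r was 0.58 with total gene counts (rho = 0.51, permutation p adjusted over 6 relations 0.0185 and 0.0945). Without the 2 animals farthest from the median gene count, r was 0.64. With the percent of counted reads assigned to no gene r was -0.56 (rho = -0.39, permutation p adjusted over 6 relations 0.0185 and 0.149). It was -0.34 (p = 0.151, permutation test) without the 2 animals farthest from the median percent. After both measures were taken out of every gene by regression, 25 of 30 genes still passed, beside 2.35% of all genes, and the median pairwise r was 0.75. ENPP6 was the gene lost, at r = 0.49 (adjusted p = 0.267, permutation test).

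Each gene was also given the mean of its r with the other genes of the set, as a description. MBP, FA2H and TMEM125 had the highest mean r, 0.80 each. The mean r of 23 of the 31 genes lay above 0.70, the 99th percentile of the genes outside the set, whose median was -0.02. TSPAN2 (-0.08), CARNS1 (-0.06) and CNTN2 (-0.06) had the lowest, within the middle of all genes. NFASC lay between, at 0.50, and ENPP6 at 0.58.

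**Figure D4:**
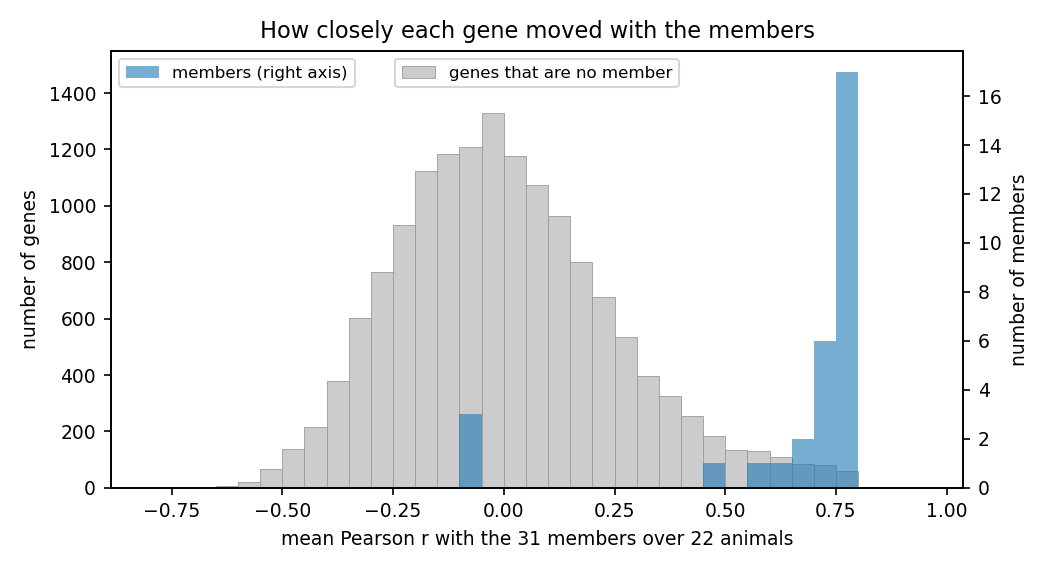
Distribution of the mean Pearson r of each gene with the 31 genes over 22 animals (horizontal axis). Grey bars count genes outside the set (left axis) and blue bars the 31 genes (right axis, another scale). Most of the 31 lie above 0.7, and 3 (TSPAN2, CARNS1 and CNTN2) lie near 0.

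The 4 genes that did not pass the test with MBP differed from each other. TSPAN2 had r = -0.05 and rho = -0.15 (adjusted p = 0.959 and 0.846, permutation test). Within the groups its r was 0.53 in BDL animals and -0.59 in SHAM animals, a difference that was not tested. CNTN2 had r = -0.17 and rho = -0.10 (adjusted p = 0.803 and 0.908, permutation test). Its SD of 0.15 over animals lay at percentile 30.5 of all genes, the smallest of the 31.

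CARNS1 had r = 0.01 and rho = -0.04 (adjusted p = 0.99 and 0.972, permutation test) on few counts. NFASC had r = 0.56 and rho = 0.51 (adjusted p = 0.112 and 0.201, permutation test). Its r rested on single animals and ran from 0.36 to 0.71 when 1 animal at a time was left out. It was 0.71 without SHAM replicate 1 (adjusted p = 0.0119, permutation test) and 0.64 without BDL replicate 8 (adjusted p = 0.0409, permutation test), past the threshold in both. SHAM replicate 1 had 321 CPM of NFASC, among the higher values, although it was low for MBP. Within the groups r was 0.76 in BDL animals and 0.31 in SHAM animals, again an untested difference. Neurons make both CNTN2 and NFASC as well as oligodendrocytes, and the part of neuronal RNA in their levels was not tested.

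The genes that followed MBP did so with different amplitudes. For each doubling of MBP, the log2 CPM of KLK6 was higher by 1.26 ± 0.16 (slope ± SE over the 22 animals). That of FA2H was higher by 0.92 ± 0.05, that of GJB1 by 0.92 ± 0.05 and that of HAPLN2 by 0.91 ± 0.08. MAG had a slope of 0.68 ± 0.06 and SOX10 one of 0.61 ± 0.06. Among the 26 genes that passed, the flattest were PMP22 (0.44 ± 0.03), TPPP (0.35 ± 0.03), SIRT2 (0.34 ± 0.04) and ENPP6 (0.29 ± 0.07). KLK6, GJB1, FA2H and HAPLN2 thus varied nearly as much as MBP or more, and PMP22, TPPP, SIRT2 and ENPP6 varied less. KLK6 had an SD of 0.99, percentile 99.2 of all genes, and MBP one of 0.68, percentile 96.9.

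Genes outside the set were read from lists of related pathways and of other cell types, each set against MBP in the same test. Of 18 single genes chosen to stand for these lists, 8 passed, among them GFAP, AQP4, OLIG2, GPR17, HMGCS1 and SQLE. Of 29 other myelin and oligodendrocyte genes tested, 23 correlated positively with MBP (median r 0.88). They included PRR5L (0.97) and PLEKHB1 (0.96). Against surgery, 24 of the 29 were on the higher side in BDL animals with a median log2 fold change of 0.15, 0 past the test and 0 at an unadjusted p under 0.05. MYO1D had the smallest p of that list (0.35 ± 0.18, SE, adjusted p = 0.881, edgeR).

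Oligodendrocyte precursor genes split. Of 17 tested, 5 correlated with MBP (median r 0.51): OLIG1 (0.92), SOX8 (0.91), OLIG2 (0.89), GPR17 (0.70) and VCAN (0.67). OLIG1, OLIG2 and SOX8 are transcription factors that mature oligodendrocytes keep, and GPR17 marks committed precursors. At an unadjusted p under 0.05 the count was 10 of 17. The share of all genes at that unadjusted p was not computed, while 4.6% passed the adjusted test in either direction. PDGFRA, the growth factor receptor of dividing precursors, had r = 0.62 (rho = 0.55, adjusted p = 0.0513, permutation test). Its adjusted p in that test was 0.0493 with DESeq2's size factors and 0.0477 under TMM without the myelin genes. After regression on sex and treatment it was 0.0205, while it was 0.14 for rho and 0.187 without the 2 animals farthest from the MBP median. CSPG4, another precursor surface protein, had r = 0.37 (rho = 0.32, adjusted p = 0.432, permutation test). GPR17 and VCAN did not pass without the 2 animals farthest from the MBP median. In BDL animals 6 of the 17 were on the higher side, with a median log2 fold change of -0.04, 0 past the test and 1 at an unadjusted p under 0.05.

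Lipid synthesis followed MBP in part. Of 18 cholesterol synthesis genes tested, 15 correlated with MBP (median r 0.74), and 13 did without the 2 animals farthest from the MBP median. HMGCS1, the synthase at an early step of the pathway, ran from 344 to 1048 CPM in BDL animals (median 668), against 502 to 883 CPM in SHAM animals (median 652) and had r = 0.89 with MBP. Like MBP, it had ranges that overlapped between the groups. FDFT1, which makes squalene (0.90), and CYP51A1 (0.91) also had high values, and TM7SF2 had the lowest (0.25). Of 10 sphingolipid genes tested, 6 correlated with MBP, and 3 did without those 2 animals. ELOVL7 (0.97) and ELOVL1 (0.90), which lengthen fatty acids, and CERS2 (0.96), which builds ceramides on very long chains, led them. On surgery, 15 of the 18 cholesterol genes and 8 of the 10 sphingolipid genes were on the higher side in BDL animals, with median log2 fold changes of 0.08 and 0.06 and 0 past the test in either list. At an unadjusted p under 0.05 the counts were 2 and 0.

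Genes of the axonal side did not pass the test with MBP. Of 11 partners of the node and paranode tested, 0 passed the test with MBP (median r -0.03, 1 at an unadjusted p under 0.05). The share of all genes at that unadjusted p with MBP was not computed. The median r was 0.43 within BDL animals and -0.41 within SHAM animals, a difference that was not tested. The list includes CNTNAP1, which pairs with contactin at the paranode (r = -0.0049, rho = 0.10). Their median log2 fold change was -0.12, with 2 of 11 on the higher side in BDL animals, 0 past the test and 2 at an unadjusted p under 0.05. The smallest p were those of NRCAM (-0.12 ± 0.05) and CNTN1 (-0.13 ± 0.06), both with an adjusted p of 0.881 in edgeR's test (SE).

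Markers of neurons and of other cells mostly did not pass the test with MBP. None of 11 Purkinje cell markers, 10 interneuron markers, 11 microglia markers, 6 endothelial markers, 5 choroid plexus markers or 9 meningeal markers passed the test in either direction. At an unadjusted p under 0.05 the counts were 1 interneuron marker, 2 microglia markers and 0 in the other 4 lists. No share of all genes at that unadjusted p was computed. Of 11 granule neuron markers, 0 correlated positively and 1, the transcription factor ETV1, negatively (r = -0.67, rho = -0.69, adjusted p = 0.0212, permutation test), beside 0.534% of all genes. ETV1 did not pass without the 2 animals farthest from the MBP median (r = -0.52). GABRA6 had r = -0.11 and rho = -0.17, and CALB1 r = -0.02 and rho = -0.07.

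Some astrocyte genes followed MBP. Of 10 tested, 3 correlated positively with MBP, beside 4.07% of all genes: GFAP (0.91), AQP4 (0.65) and ID4 (0.65). GFAP, the filament protein of fibrous astrocytes, ran from 2229 to 4802 CPM in BDL animals (median 3907), against 2583 to 5289.7 CPM in SHAM animals (median 3497). The groups overlapped over most of their range. Without the 2 animals farthest from the MBP median GFAP kept r = 0.85 (adjusted p = 0.00265, permutation test), while AQP4 (0.43) and ID4 (0.22) did not pass. SPP1, listed with the markers of brainstem and deep nuclei, had r = 0.83, and CDH19, listed with Schwann cells, r = 0.66. CDH19 did not pass without the 2 animals farthest from the MBP median (0.52, adjusted p = 0.223, permutation test). The summed level of the 10 astrocyte markers was 4026 to 7267 CPM in BDL animals (median 6673 CPM) and 5137 to 7990.4 CPM in SHAM animals (median 6003 CPM). The share of white matter in each sample is not labelled, and its part in these correlations was not tested.

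**Figure D5:**
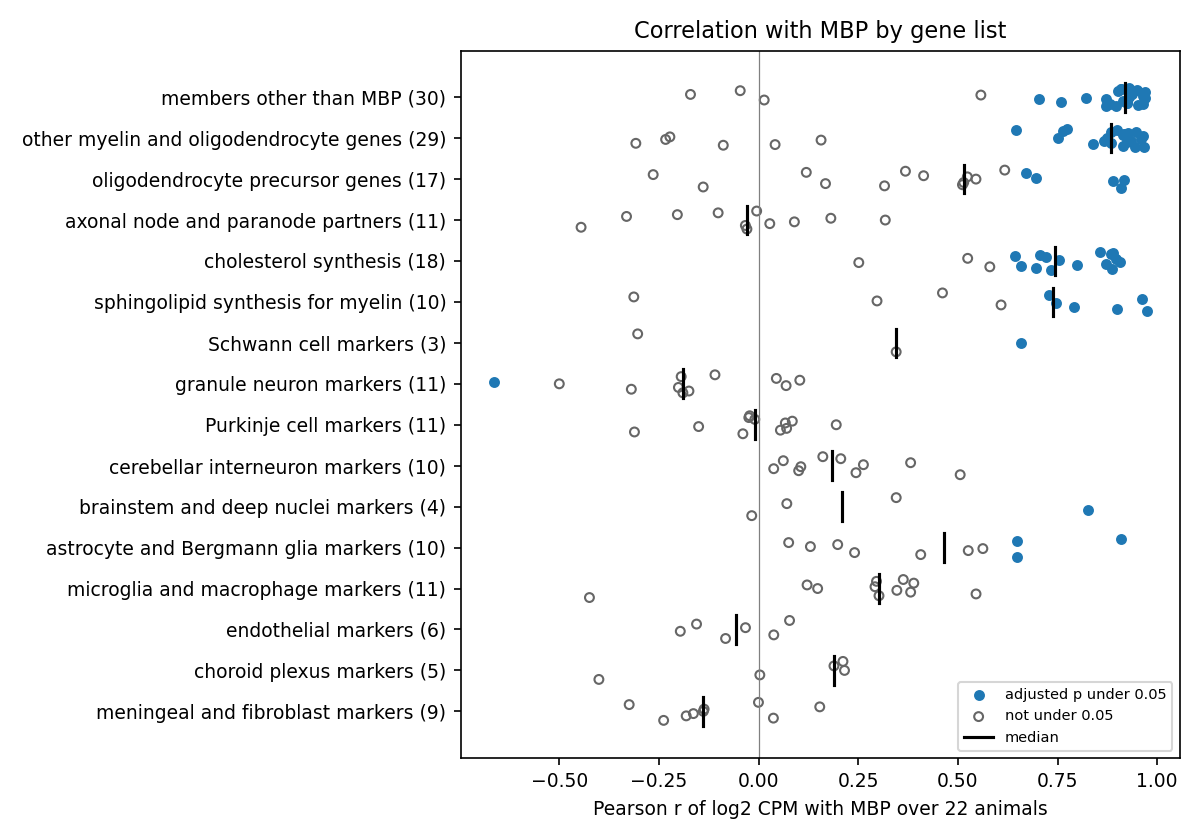
Pearson r of each gene's log2 CPM with that of MBP over 22 animals (horizontal axis), by gene list with the number of genes tested in brackets. Filled points passed an adjusted p of 0.05, open points did not, and black bars are list medians. The set itself, the other myelin genes and the cholesterol genes lie mostly above 0.6, and the neuronal, vascular and meningeal lists lie around 0.

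Among the genes outside the set with the highest mean r with it were CERS2 (0.81), EFHD1 (0.80), PRR5L (0.80), MYO1E (0.79), ADAMTS4 (0.79), APOD (0.79) and PLPP2 (0.79), each over 22 animals. APOD, a lipid carrier, had the highest r with MBP of these, 0.98. CERS2, EFHD1, PRR5L and ADAMTS4 were among the listed myelin and sphingolipid genes, and MYO1E, APOD and PLPP2 were in no list. The lowest mean r belonged to POLR1B (-0.64), a subunit of RNA polymerase I, HEATR3 (-0.64), SFPQ (-0.64), a splicing factor, IMPDH2 (-0.63), an enzyme of guanine nucleotide synthesis, and MPZL3 (-0.61).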

How the data were processed

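RNA of 22 cerebella was sequenced as 150 bp read pairs. The authors deposited 1 table per animal, which holds unnormalized integer counts of reads for each Ensembl identifier. Per the submitters' processing notes, Trim Galore, HISAT2, HTSeq and DESeq2 were used with the build Sscrofa11.1, and versions and strand setting were not stated. The 5 closing lines of each table, which belong to no gene, were kept out of library sizes and tests. The depth limits the precision of the genes with few counts. The p-values of edgeR weigh a difference against the spread between animals, and permutation p-values compare r with its values after animals are shuffled.

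Genes were filtered with filterByExpr (minimum count 10, minimum total 15), which left 14994 of 31907, and scaled by TMM. The BDL against SHAM, female against male and weight tests were edgeR 4.0.16 quasi-likelihood tests (R 4.3.3) on sex and treatment, and within-sex effects came from a model of the 4 groups. Adjusted p-values are Benjamini-Hochberg over all genes tested, with a threshold of 0.05. Correlations used log2 CPM (prior count 2) and 100000 permutations in Python 3.11.15. The design planned to adjust the correlations over the members, and they were adjusted over all genes. DESeq2 1.42.0, limma 3.58.1, other scalings, filters and covariates and leaving out animals were the alternatives. Both tests were checked on simulated data. Gene positions are those of RefSeq on Sscrofa11.1. Replicates were numbered in accession order, so equal numbers do not pair animals.

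The genes and lists were chosen with earlier results of these data known. Named in full are MBP, MAG, PMP22, ENPP2, TF, the 3 genes with the smallest p, and the 3 with the highest and the 3 with the lowest mean r. The names also cover up to 2 genes of each list by p and the 8 highest and 5 lowest genes outside it by mean r. List genes named for their r, and animals singled out, were chosen after their values were seen. A few genes covered by this rule or these lists are left unreported here.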

Additional observations from a re-analysis of the deposited data

Results flagged for a closer look

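Within each of the 4 groups of sex and surgery, the lowest and the highest animal of every gene of the set were compared with the others by Dixon's test at the 95% level. Of 124 groups checked, 5 had an animal that stood apart, and chance alone flags about 1 in 20. SHAM replicate 11 stood apart among the 5 SHAM females in 3 genes. It had 591 CPM of CNP, where the next SHAM female had 378.0 CPM. Its FA2H level was 110.9 CPM, with the next at 69.0 CPM, and its TF level was 683 CPM, with the next at 363 CPM. SHAM replicate 8 had 14.1 CPM of TSPAN2 among the same females, with the next at 11.13 CPM. Among the 6 SHAM males, replicate 9 had 32.4 CPM of KLK6, with the next at 8.22 CPM. Without SHAM replicate 9 the log2 fold change of KLK6, BDL over SHAM, was 0.41, beside 0.08 with it.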

How the results depend on the processing

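The count of genes past the adjusted test of BDL against SHAM was 0 under every alternative run, and DESeq2 called 1 of all genes and limma-voom 0. The count of genes correlated with MBP lay between 25 and 27. Without BDL replicate 2 and SHAM replicate 1, an alternative chosen after seeing the data, 12 genes were on the higher side for body weight, 14 were on the higher side in BDL females, and the median pairwise r was 0.77. It was 0.75 after regression on total gene counts and the percent of reads assigned to no gene, also chosen after seeing the data. Of the 18 single genes, 5 passed without the 2 animals farthest from the MBP median. Some values near 0 changed sign, and the cause was not tested. TSPAN2 was -0.019 with no sex term and ENPP6 -0.015 without the 2 low animals (log2 fold changes). Beside MBP in the model, UGT8 was -0.055, ENPP6 -0.029, QDPR -0.059, ERMN -0.070, GPR37 -0.037, TF -0.11 and KLK6 -0.15. In r with MBP, CNTN2 was 0.052 after regression on total gene counts and the percent of reads assigned to no gene. It was 0.055 without the 2 animals. CARNS1 was -0.038 by rho and -0.34 without them. After that regression CALB1 was 0.19, AIF1 -0.065, CLDN5 -0.26, CNTNAP1 0.34 and SLC17A6 -0.44. DCN was 0.0018 under TMM without the myelin genes, 0.00011 with a prior count of 0.5, 0.016 after regression on sex and treatment, 0.022 by rho and 0.043 without the 2 animals. CNTNAP1 was 0.024 after regression on sex and treatment, 0.10 by rho and 0.35 without the 2 animals, and SLC17A6 was -0.047 without them. Leaving out 1 animal at a time, the log2 fold change ran from -0.00025 to 0.16 for PMP22, from -0.014 to 0.052 for TSPAN2, from -0.028 to 0.061 for ENPP6, from -0.036 to 0.093 for QDPR and from -0.19 to 0.41 for KLK6, and r with MBP from -0.38 to 0.097 for TSPAN2 and from -0.15 to 0.14 for CARNS1. NKX6-2, ASPA and CARNS1 had few counts, which limits their precision. No paired analysis was possible because replicates were numbered in accession order and equal numbers link no animals.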
